A study of Rattus norvegicus with 16 samples.

Results

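The cadherin and protocadherin genes were taken as every gene whose array symbol is Cdh followed by a number or starts with Pcdh, without the endothelial cadherin Cdh5 and the glial cadherin Cdh19. Each gene was read from its single-gene probe, and none had a second one. The rule gave 50 of the 18166 named genes (0.275%), of which 20 were Cdh genes and 30 were Pcdh genes. They were followed through 16 arrays of sorted rat carotid body cells. The carotid body senses oxygen in arterial blood beside the carotid bifurcation. Per the labels, the rats were Wistar animals of 9 to 11 weeks, both carotid bodies were mixed and dispersed with enzymes, and cells were sorted on the HNK-1 epitope, a sugar carried by neural crest derivatives. The 4 groups had 4 arrays each: hypoxic neuroblasts (HNK-1 positive, from rats kept in hypoxic chambers for 3 days), normoxic neuroblasts (HNK-1 positive, from rats in ambient air), hypoxic glomus cells (HNK-1 negative, 3 days of hypoxia) and normoxic glomus cells (HNK-1 negative, ambient air). The glomus fraction is thus whatever lacked the epitope, and each array started from 500 pg of total RNA. Whether the 4 arrays of a group stand for separate animals is not stated in the labels, so the p-values measure only the spread between these samples, and the number of arrays limits their precision.

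Cadherins are calcium-dependent adhesion proteins of the cell surface. Classical cadherins (types I and II) bind catenins inside the cell, which tie the junction to actin, and neural crest cells are known to exchange one classical cadherin for another when they leave the neural tube and when they settle. Protocadherins bind each other more weakly and do not use the classical catenin site. The delta protocadherins are single genes that steer axons and cell sorting, partly by recruiting the WAVE actin regulators, and the clustered protocadherins (alpha, beta and gamma) are switched on in different combinations in single neurons, which then tell their own branches from those of other cells. The array named 5 type I classical cadherins, 10 of type II, 5 other cadherins, 3 delta-1 protocadherins, 5 delta-2 protocadherins, 3 other solitary protocadherins and 19 clustered protocadherins, all of the beta group. Cdh18 and Pcdh11x had no single-gene probe, and 3 probes that name several protocadherins were not used.

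Signals are on a log2 scale, on which 1 unit is a 2-fold difference. Levels of different probes were not compared with each other. In limma, which fitted all 30429 probes and all 16 arrays together, a gene passed at an adjusted p under 0.05. Hypoxic neuroblast replicate 1 stood apart: its mean correlation with the other arrays of its group was 0.914, against 0.949 or more for the other 15 arrays. The counts for hypoxic neuroblasts are therefore also given without it, as are the values of some genes that it moved. B3gat1, an enzyme that makes the HNK-1 epitope, was higher in normoxic neuroblasts (6.37 ± 0.69) than in normoxic glomus cells (5.01 ± 0.35; SD, n = 4 each; log2 difference 1.36 ± 0.29, adjusted p = 0.0197). Th, the first enzyme of dopamine synthesis and a defining glomus gene, was at 12.30 in normoxic neuroblasts and 12.62 in normoxic glomus cells (adjusted p = 0.972), so both fractions carried the chemoreceptor transcript. In normoxia, 4 of the 9 glomus markers were lower in neuroblasts and 4 of the 8 immature neuron markers were higher, Stmn2, Sox4, Stmn4 and Dcx. The mean of the 8 immature neuron markers lay at 7.68 to 8.15 in normoxic neuroblasts, against 6.70 to 6.99 in normoxic glomus cells.

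Other cell types moved with the sort. Of the 12 macrophage markers 5 were lower in normoxic neuroblasts, with list means of 4.11 to 4.59 there, against 4.92 to 6.61 in normoxic glomus cells. Of 10 endothelial markers only Cldn5 passed (-3.65 ± 0.34, adjusted p = 9.5e-06), with list means of 4.13 to 4.60 in normoxic neuroblasts, against 4.99 to 6.69 in normoxic glomus cells. Single markers of pericytes (Mcam), epithelium (Epcam) and glia (Gpm6b) were higher in normoxic neuroblasts, and none of the 10 fibroblast or 7 T and NK cell markers passed. The part of these cell types in the cadherin results was not tested, and in bulk samples fewer cells of a type and less RNA per cell cannot be told apart.

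In normoxia 8 cadherin and protocadherin genes separated the neuroblast fraction from the glomus fraction. Cdh7, Cdh6, Pcdh19, Pcdh17, Pcdh15, Pcdh9 and Pcdhb2 were higher in neuroblasts, and Cdh9 was lower. These are 8 of the 50 genes (16%), 7 higher and 1 lower, against 1.82% of all probes, 0.996% higher and 0.828% lower, and 2.29% of named genes. Groups that did not overlap were found for 9 of the 50 (18%), against 7.39% of all probes. The 8 genes that passed fell in most classes: 3 of 10 type II cadherins, 2 of 5 delta-2 protocadherins, 1 of 3 delta-1 protocadherins, 1 of 3 other solitary protocadherins and 1 of 19 beta protocadherins, and none of the type I or other cadherins. The median log2 difference over the 50 genes was 0.04, against -0.01 over all probes.

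**Figure D1:**
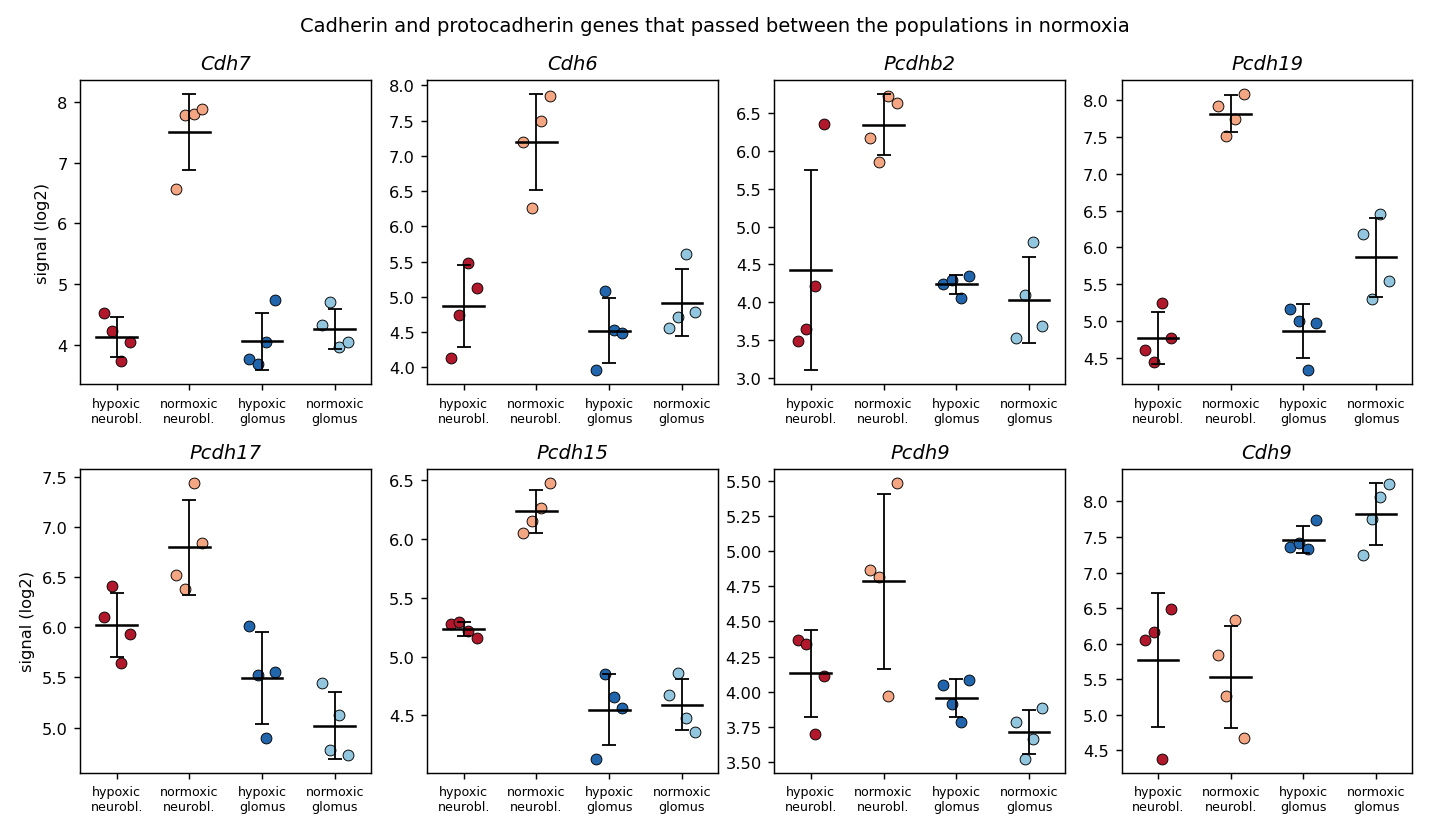
Log2 signal of the 8 cadherin and protocadherin genes that passed between the populations in normoxia, for hypoxic neuroblasts, normoxic neuroblasts, hypoxic glomus cells and normoxic glomus cells. Points are arrays, the bar is the mean and the whiskers the SD over 4 arrays, and each panel has its own axis. Cdh7 lies between 6.57 and 7.88 in normoxic neuroblasts and at or below 4.73 in every other group, while Cdh9 is low in both neuroblast groups.

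Among the type II classical cadherins, Cdh7 (probe 17679506), the cadherin that chick neural crest cells carry while they migrate, showed the clearest difference. Its log2 signals were 6.57, 7.78, 7.80 and 7.88 in normoxic neuroblasts, against 4.32, 4.70, 3.97 and 4.04 in normoxic glomus cells. Every neuroblast array was above every glomus array, and replicate 1 was the lowest of the neuroblasts. The log2 difference was 3.25 ± 0.30 (limma standard error, 95% interval 2.63 to 3.87, adjusted p = 8.11e-06).

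Cdh6 (probe 17745990), which marks neural crest cells before they leave the neural tube in chick and mouse, had log2 signals of 7.19, 6.26, 7.49 and 7.85 in normoxic neuroblasts, against 4.56, 4.72, 5.61 and 4.79 in normoxic glomus cells. All 4 neuroblast arrays again lay above all 4 glomus arrays, and the log2 difference was 2.28 ± 0.35 (adjusted p = 0.00107). Cdh9 (probe 17736653), a type II cadherin of neurons that helps to specify synapses in the mouse hippocampus, ran the other way. Its log2 signals were 5.84, 5.27, 6.33 and 4.67 in normoxic neuroblasts, against 7.25, 7.76, 8.06 and 8.25 in normoxic glomus cells. The groups did not overlap, and the log2 difference was -2.30 ± 0.40 (adjusted p = 0.00303). In the reference annotation Cdh6, Cdh9, Cdh10 and Cdh12 follow each other on chromosome 2, so 2 neighbouring cadherin genes differed in opposite directions. The other 2 had log2 differences of 0.00 ± 0.17 for Cdh10 and 0.13 for Cdh12 and did not pass. Cdh22, a type II cadherin of brain and pituitary, had a log2 difference of -0.64 ± 0.18 with no overlap of the groups, and it missed the threshold (adjusted p = 0.0905), which it passed with array weights (adjusted p = 0.0363) and without hypoxic neuroblast replicate 1 (adjusted p = 0.0344), an array that enters only the estimate of the spread here. Without that array 8 genes were higher and 2 lower.

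The 250 bases before the start of Cdh7 and Cdh6 are shown because among the classical cadherins the means of the 4 groups lay furthest apart for these 2 type II genes, and both were highest in normoxic neuroblasts. They come from RefSeq on build GRCr8, the Cdh7 stretch from chr13:27197332-27197581 on the plus strand and the Cdh6 stretch from chr2:63952288-63952537 on the minus strand. Capitals mark CANNTG, the general form of the E-box, the class of site that Snail, Zeb and Twist repressors of cadherin genes are known to bind. Which forms of it each repressor binds was not considered, so the marked letters are not shown to be sites of these repressors.
Cdh7: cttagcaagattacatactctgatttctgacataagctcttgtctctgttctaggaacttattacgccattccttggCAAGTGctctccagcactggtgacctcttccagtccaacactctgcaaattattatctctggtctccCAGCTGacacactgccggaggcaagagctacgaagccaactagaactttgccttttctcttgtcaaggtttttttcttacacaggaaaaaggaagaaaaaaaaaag
Cdh6: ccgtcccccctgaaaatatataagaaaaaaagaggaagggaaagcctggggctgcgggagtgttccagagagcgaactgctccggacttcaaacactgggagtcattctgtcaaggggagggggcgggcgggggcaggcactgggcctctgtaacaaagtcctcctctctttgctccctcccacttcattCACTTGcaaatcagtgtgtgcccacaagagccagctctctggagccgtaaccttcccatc
Cdh7 held 2 matches and Cdh6 held 1. The pattern reads the same on both strands, and its form CACGTG would also hold ACGTG. It is found in the same window of 65.2% of all 27457 promoters and in 22 of the 35 cadherin and protocadherin promoters in the table, so its presence does not single these genes out. ACGTG, the core of the sites bound by hypoxia-inducible factors, was searched on both strands and found before 16.9% of all genes and in 2 of the 35, Cdh15 and Pcdh10. It was not among the printed letters of Cdh7 or Cdh6.

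Of the delta-2 protocadherins, Pcdh19 (probe 17878718), an X-linked gene whose loss causes epilepsy in humans and whose protein pairs with N-cadherin, had log2 signals of 7.93, 7.51, 7.75 and 8.09 in normoxic neuroblasts, against 6.18, 5.30, 6.45 and 5.54 in normoxic glomus cells. Pcdh17 (probe 17700357), which recruits WAVE regulators during axon growth in mice, had 6.52, 6.38, 7.44 and 6.84 in normoxic neuroblasts, against 5.44, 4.78, 5.13 and 4.73 in normoxic glomus cells. For both genes every neuroblast array was above every glomus array. The log2 differences were 1.95 ± 0.26 for Pcdh19 (adjusted p = 0.000274) and 1.78 ± 0.27 for Pcdh17 (adjusted p = 0.000835).

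Pcdh15 (probe 17757993), known as the lower strand of the tip link in inner ear hair cells, had log2 signals of 6.05, 6.15, 6.26 and 6.48 in normoxic neuroblasts, against 4.67, 4.86, 4.48 and 4.36 in normoxic glomus cells. The spread within each group was small, the groups were far apart, and the log2 difference was 1.64 ± 0.17 (adjusted p = 3.03e-05). Cdh23, its partner in the tip link, did not pass: its log2 difference was -0.03 and its mean stayed between 3.69 and 3.89 in all 4 groups. The delta-1 gene Pcdh9 (probe 17704837), a protocadherin of developing neurons, had log2 signals of 4.87, 4.82, 3.97 and 5.49 in normoxic neuroblasts, against 3.78, 3.52, 3.66 and 3.88 in normoxic glomus cells. Replicate 3 of the neuroblasts lay just above the glomus arrays. The log2 difference was 1.08 ± 0.25 (adjusted p = 0.0276). Its call was lost in 7 of 16 fits that left out 1 array, all 7 of them without an array compared here. Of the arrays compared, only normoxic neuroblast replicate 3 could be left out without losing the call. Fitting only the arrays compared ended it too (adjusted p = 0.0806), and adjusted p reached 0.0913 over all alternatives.

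Between hypoxic neuroblasts and hypoxic glomus cells the beta protocadherin Pcdhb21 was lower in neuroblasts, and no other gene of the family passed. That is 1 of the 50 genes (2%), against 0.283% of all probes, 0.138% higher and 0.145% lower. An unadjusted p under 0.05 was found for 10 of the 50. No share of all probes at that limit is given here, so this count is no result about the family. Pcdhb21 (probe 17722686) had log2 signals of 4.17, 3.92, 4.83 and 4.67 in hypoxic neuroblasts, against 5.47, 5.40, 6.34 and 5.49 in hypoxic glomus cells. The groups did not overlap and the log2 difference was -1.28 ± 0.24 (adjusted p = 0.0276). Without hypoxic neuroblast replicate 1 it was -1.20 (adjusted p = 0.0617), and 4 other single arrays, hypoxic glomus replicates 1, 3 and 4 and hypoxic neuroblast replicate 2, also ended the call when left out.

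Cdh7 did not pass between the fractions in hypoxia, with a log2 difference of 0.07 ± 0.30 (95% interval -0.55 to 0.69, adjusted p = 0.946), an interval that excludes its normoxic difference of 3.25. Some genes had groups that did not overlap and yet missed the threshold. Cdh9 had log2 signals of 6.05, 6.17, 4.38 and 6.49 in hypoxic neuroblasts, against 7.36, 7.42, 7.33 and 7.74 in hypoxic glomus cells (log2 difference -1.69 ± 0.40, adjusted p = 0.0905). Pcdh15 had a log2 difference of 0.69 ± 0.17 (adjusted p = 0.118). Cdh13, an adiponectin-binding cadherin anchored in the membrane without an inner tail, averaged 3.86 ± 0.25 in hypoxic neuroblasts and 4.82 ± 0.25 in hypoxic glomus cells (SD, n = 4 each; log2 difference -0.96 ± 0.23, adjusted p = 0.0921). Cdh13 gained a call after quantile normalization (adjusted p = 0.0475) and without normoxic glomus replicate 1 (adjusted p = 0.0235), an array that enters only the estimate of the spread here. Of the remaining named genes, the E-cadherin gene Cdh1 had 0.60 (adjusted p = 0.507) and Pcdhb15 had 0.70 (adjusted p = 0.401), both with overlapping groups. Groups that did not overlap were found for 6 of the 50 genes (12%), against 4.48% of all probes. Here 6 of the 12 macrophage markers were lower in hypoxic neuroblasts, with list means of 4.55 to 5.01 there, against 5.95 to 6.44 in hypoxic glomus cells.

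**Figure D2:**
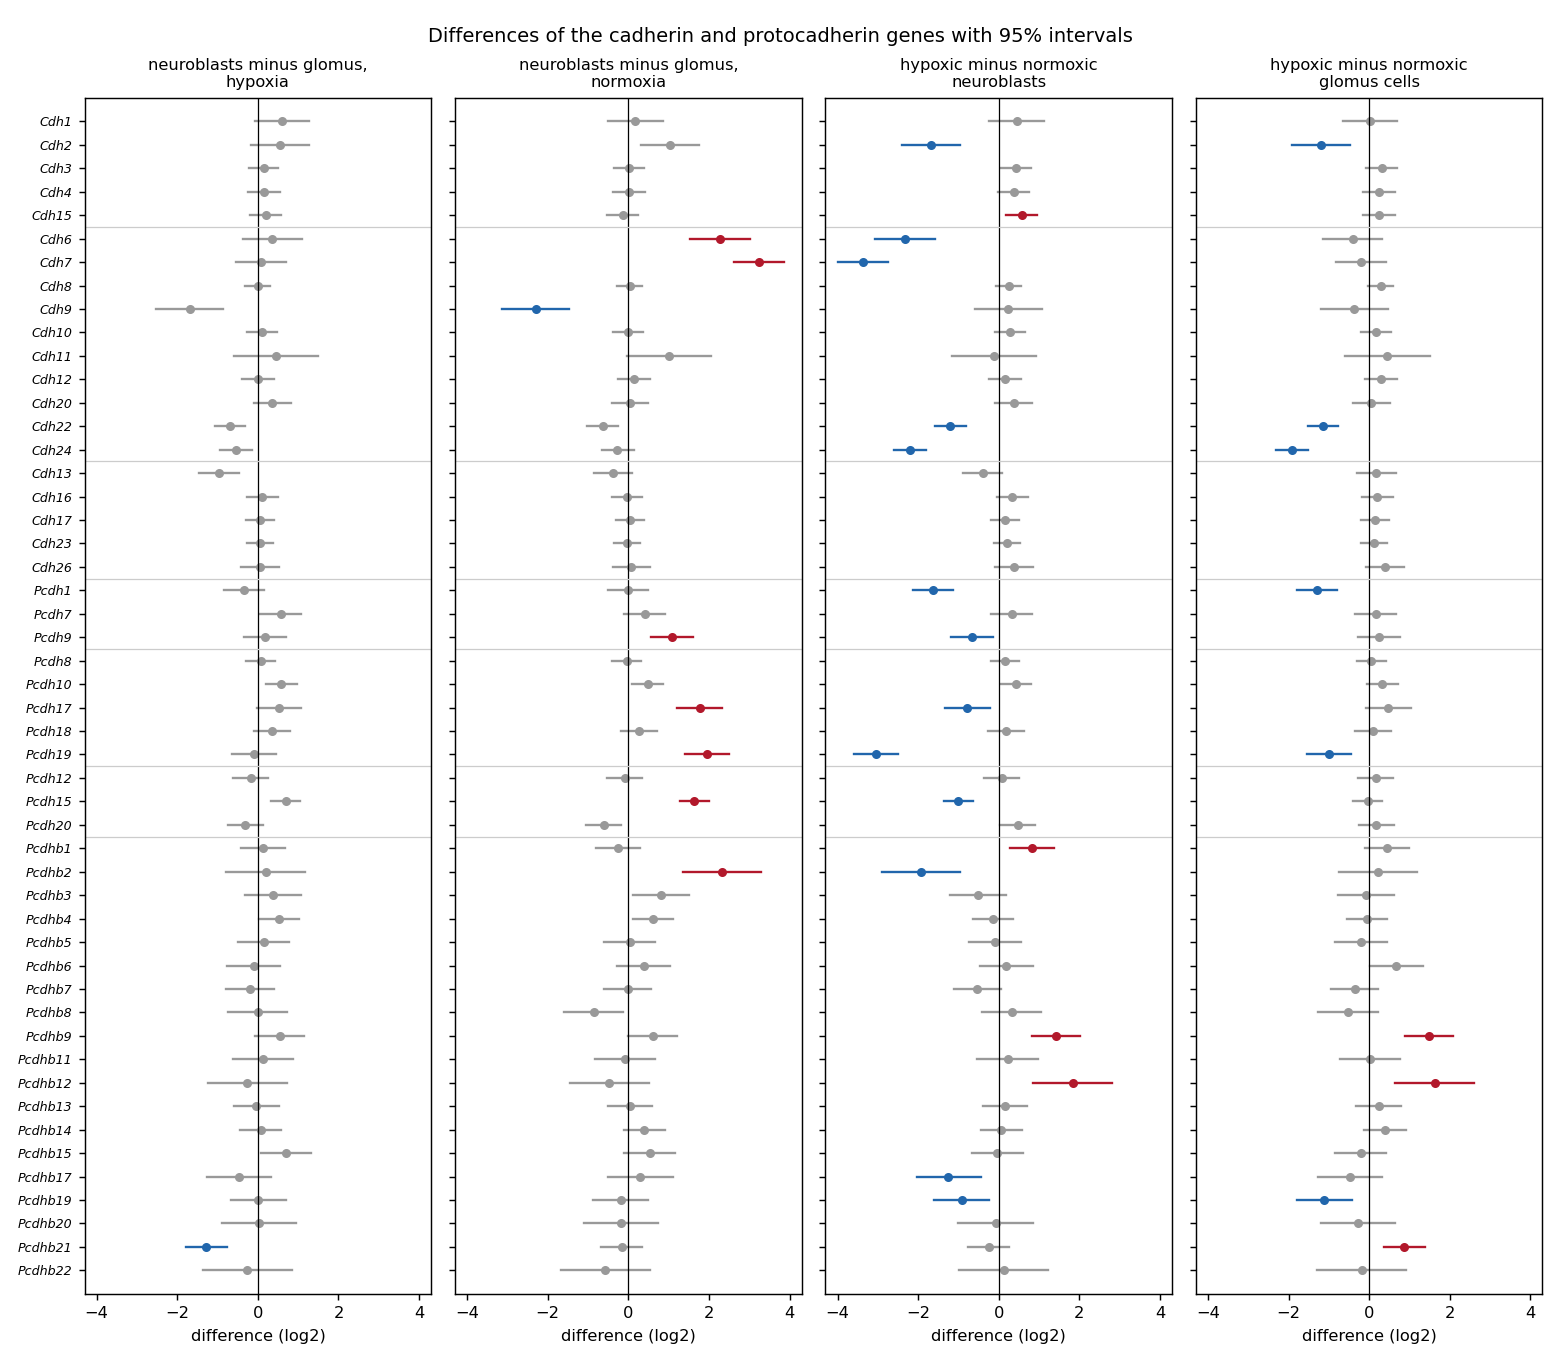
Log2 difference of each of the 50 genes with its 95% interval from limma, for neuroblasts minus glomus cells in hypoxia and in normoxia and for hypoxic minus normoxic neuroblasts and glomus cells. Red and blue mark genes that passed as higher and lower, grey the rest, and lines separate the classes from type I cadherins at the top to beta protocadherins at the bottom. The panel for the populations in hypoxia has 1 coloured gene, Pcdhb21, and the neuroblast panel for hypoxia has 17.

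After 3 days of hypoxia Cdh7, Pcdh19, Cdh6 and Cdh24 showed the largest falls of the family in neuroblasts, and Pcdhb12 and Pcdhb9 the largest rises. In hypoxic against normoxic neuroblasts 17 of the 50 genes passed (34%), 13 lower (26%) and 4 higher (8%). Over all probes 32.1% passed, 13.7% lower and 18.4% higher, and over named genes 36.3%, 18.9% lower and 17.4% higher. The total was near the background share and is no result about the family, whose median log2 difference was 0.14, against 0.25 over all probes. Without hypoxic neuroblast replicate 1, 14 of the 17 still passed, 11 lower and 3 higher. Pcdhb1 and Pcdh17 were among those that did not, and Pcdh9 and Pcdhb19 were not read singly in that fit. With all arrays, groups that did not overlap were found for 15 of the 50 (30%), against 28% of all probes. The lower genes were Cdh7, Pcdh19, Cdh6, Cdh24, Pcdhb2, Cdh2, Pcdh1, Pcdhb17, Cdh22, Pcdh15 and Pcdh17, together with Pcdhb19 and Pcdh9, which lie outside the naming rule of 15 genes and were added after their values were seen. The higher ones were Pcdhb12, Pcdhb9, Pcdhb1 and Cdh15. This comparison and the normoxic comparison of the populations share the normoxic neuroblast arrays, so a gene high on those arrays enters both. Markers of immature neurons moved too: 5 of the 8 were lower and 1 was higher in hypoxic neuroblasts, with list means of 6.88 to 7.24 there, against 7.68 to 8.15 in normoxic neuroblasts. B3gat1 had a log2 difference of -0.86 ± 0.29 (adjusted p = 0.0346), and without hypoxic neuroblast replicate 1 it did not pass (-0.74, adjusted p = 0.0916). Of the 9 glomus markers 4 were lower, Epas1, Rgs5, Ddc and Th, and 3 were higher, Cox4i2, Slc18a1 and Kcnk3. Th had a log2 difference of -1.17 ± 0.39 (adjusted p = 0.03), and -0.59 without hypoxic neuroblast replicate 1 (adjusted p = 0.0359), while Slc18a1, a vesicular monoamine transporter, had 1.51 ± 0.29 (adjusted p = 0.000751). Of the markers of other cells, 2 of 10 endothelial, 2 of 9 glial, 1 of 9 pericyte and 1 of 7 T and NK cell genes were higher. Of 7 epithelial and parathyroid genes 1 was higher, of parathyroid, and 1 lower, of epithelium. Of 10 fibroblast genes 1 was lower, and none of the 12 macrophage markers passed. With 17.4% of named genes higher and 18.9% lower, these counts are no result about those cells. Whether the make-up of the sorted fraction differed between hypoxia and normoxia was not tested.

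Cdh7 was at 4.52, 4.22, 3.73 and 4.04 in hypoxic neuroblasts, against 6.57, 7.78, 7.80 and 7.88 in normoxic neuroblasts on the log2 scale. Every hypoxic array was below every normoxic one, and the hypoxic values lay within the range of 3.69 to 4.73 seen in the 2 glomus groups. The log2 difference was -3.38 ± 0.30 (adjusted p = 8.23e-07), and -3.51 without hypoxic neuroblast replicate 1. Pcdh19 had log2 signals of 4.61, 4.44, 5.25 and 4.77 in hypoxic neuroblasts, against 7.93, 7.51, 7.75 and 8.09 in normoxic neuroblasts. Its groups were more than 2 units apart, and the log2 difference was -3.05 ± 0.26 (adjusted p = 6.73e-07). For Cdh6 the log2 signals were 4.13, 4.74, 5.48 and 5.13 in hypoxic neuroblasts, and its 4 normoxic values of 6.26 to 7.85 lay above all of them (-2.33 ± 0.35, adjusted p = 9.46e-05).

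Smaller falls were seen for Pcdh15, Pcdh17 and Pcdh9. Pcdh15 had 5.28, 5.29, 5.22 and 5.16 in hypoxic neuroblasts, below its normoxic neuroblast range of 6.05 to 6.48 and above its highest glomus value of 4.86, with a log2 difference of -1.0 ± 0.17 (adjusted p = 0.000355). Pcdh17 had 6.10, 6.41, 5.64 and 5.93 in hypoxic neuroblasts, which overlapped the lowest normoxic value of 6.38 (-0.78 ± 0.27, adjusted p = 0.0345). Its call was lost without hypoxic neuroblast replicate 1 (adjusted p = 0.0505) and in 6 of the other alternatives. Pcdh9 averaged 4.13 ± 0.31 in hypoxic neuroblasts and 4.79 ± 0.62 in normoxic neuroblasts (SD, n = 4 each), with overlapping groups and a log2 difference of -0.66 ± 0.25 at an adjusted p of 0.0495.

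Between hypoxia and normoxia 8 genes passed in both fractions, out of 17 in neuroblasts and 9 in glomus cells. The 2 comparisons contrast different arrays but share the estimate of the spread from the joint fit. Cdh24, Cdh2, Cdh22, Pcdh1, Pcdh19 and Pcdhb19 were lower in both, and Pcdhb9 and Pcdhb12 were higher in both. These are 16% of the 50 genes, against 14.7% of all probes and 18.2% of named genes that passed in both, so the number of shared genes is no result about the family. Cdh24 (probe 17702684), a type II cadherin known in humans to bind catenins, had the smallest p in glomus cells. Its log2 signals were 7.52, 7.52, 7.61 and 7.12 in hypoxic neuroblasts, against 9.77, 9.60, 9.42 and 9.75 in normoxic neuroblasts. In glomus cells they were 8.10, 7.55, 8.40 and 7.89 in hypoxia, against 10.07, 9.79, 10.06 and 9.68 in normoxia. All hypoxic arrays of both fractions were below all normoxic ones. The log2 differences were -2.19 ± 0.19 in neuroblasts (adjusted p = 7.36e-07) and -1.92 ± 0.19 in glomus cells (adjusted p = 8.84e-06).

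Cdh2 (probe 17724958), N-cadherin, the main type I cadherin of neural cells, had log2 signals of 5.98, 7.76, 7.76 and 7.60 in hypoxic neuroblasts, against 8.80, 8.21, 9.33 and 9.46 in normoxic neuroblasts. Its glomus values were 6.74, 6.77, 6.90 and 6.44 in hypoxia, against 7.65, 7.77, 8.22 and 8.01 in normoxia. Neither pair of groups overlapped, and hypoxic neuroblast replicate 1 was far below the other 3. The log2 differences were -1.67 ± 0.34 in neuroblasts (adjusted p = 0.0014) and -1.20 ± 0.34 in glomus cells (adjusted p = 0.0199). Without hypoxic neuroblast replicate 1 the neuroblast difference was -1.24 (adjusted p = 0.00136), and the glomus call was lost when normoxic glomus replicate 3 or 4 or hypoxic glomus replicate 4 was left out.

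Cdh22 (probe 17779342) had 4.93, 5.58, 5.27 and 5.60 in hypoxic neuroblasts, against 6.45, 6.68, 6.58 and 6.47 in normoxic neuroblasts, and a log2 difference of -1.20 ± 0.18 (adjusted p = 9.06e-05). In glomus cells it had 6.18, 6.0, 5.82 and 6.12 in hypoxia, against 7.28, 7.47, 7.13 and 6.86 in normoxia (-1.15 ± 0.18, adjusted p = 0.000255). Hypoxic and normoxic arrays did not overlap in either fraction. Pcdh1 (probe 17725869), a delta-1 protocadherin of epithelia, had 4.91, 5.92, 5.39 and 5.77 in hypoxic neuroblasts, against 6.94, 6.89, 7.33 and 7.34 in normoxic neuroblasts. In glomus cells it had 6.26, 5.44, 5.99 and 5.68 in hypoxia, against 7.34, 6.78, 7.14 and 7.29 in normoxia. Its log2 differences, again without overlap, were -1.63 ± 0.23 in neuroblasts (adjusted p = 5.99e-05) and -1.30 ± 0.23 in glomus cells (adjusted p = 0.000833).

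**Figure D3:**
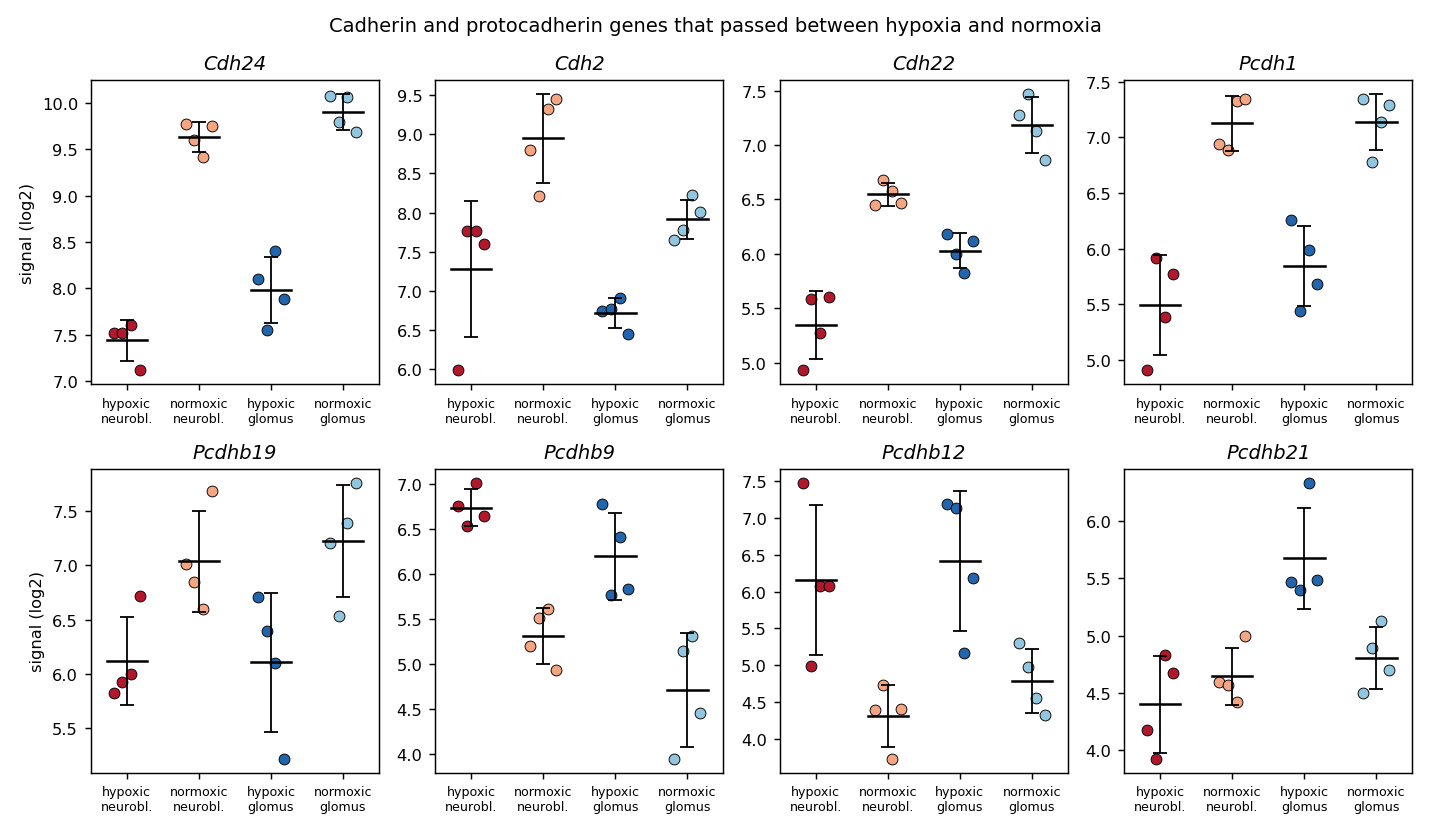
Log2 signal in the 4 groups of 8 genes that passed between hypoxia and normoxia in glomus cells. Points are arrays, the bar is the mean and the whiskers the SD over 4 arrays, and each panel has its own axis. Cdh24, Cdh2, Cdh22 and Pcdh1 are lower in both hypoxic groups with no overlap within a fraction, Pcdhb9 is higher in both, and Pcdhb21 is higher in hypoxic than in normoxic glomus cells.

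In hypoxic against normoxic glomus cells 9 of the 50 genes passed (18%), 6 lower and 3 higher, and 18.9% of all probes did, 9.5% lower and 9.37% higher. Groups did not overlap for 8 of the 50 (16%), against 26.4% of all probes. The share of the family that passed was the background share and is no result about it. Besides Cdh24, Cdh2, Cdh22 and Pcdh1, the lower genes were Pcdh19 and Pcdhb19. Pcdh19 had log2 signals of 5.16, 5.0, 4.33 and 4.97 in hypoxic glomus cells, against 6.18, 5.30, 6.45 and 5.54 in normoxic glomus cells. The groups lay close but did not overlap, with a log2 difference of -1.0 ± 0.26 (adjusted p = 0.011). Cdh7 had -0.20 ± 0.30 there and did not pass (adjusted p = 0.663), on signals of 3.76, 3.69, 4.04 and 4.73 in hypoxic glomus cells, against 3.97 to 4.70 in normoxic glomus cells. Without normoxic glomus replicate 4, 5 of the 9 genes passed, 4 lower and 1 higher. Markers of other cells moved in the same comparison. Of the 12 macrophage markers 3 were higher, C1qc, Tyrobp and Aif1, with list means of 5.95 to 6.44 in hypoxic glomus cells, against 4.92 to 6.61 in normoxic glomus cells. Of the 10 endothelial markers 2 were higher, Cldn5 and Emcn, with list means of 5.73 to 6.63 in hypoxic glomus cells, against 4.99 to 6.69 in normoxic glomus cells. Of the 9 glial markers S100b was higher and Mbp and Cdh19 were lower, and Cd3g of T cells and Des of smooth muscle were higher. Of the 9 glomus markers 4 were lower and 1 was higher, with list means of 10.48 to 10.65 in hypoxic glomus cells, against 10.87 to 11.01 in normoxic glomus cells. Their part in the cadherin results was not tested.

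The direction counts in the hypoxia comparisons moved with the scaling of the arrays. Array medians were 4.71 to 4.94 in hypoxic neuroblasts against 4.40 to 4.61 in normoxic neuroblasts, and 4.71 to 4.74 in hypoxic glomus cells against 4.42 to 4.64 in normoxic glomus cells, so the median probe was 0.25 higher in hypoxic neuroblasts and 0.17 higher in hypoxic glomus cells on the log2 scale. With each array centred on its median, 15 of the 50 family genes were lower and 2 higher in hypoxic neuroblasts, against 5464 (18%) and 1826 (6%) of all probes. In hypoxic glomus cells 6 of the 50 were lower and 2 higher, against 3783 (12.4%) and 1370 (4.5%) of all probes. After quantile normalization 12 of the 50 were lower and 2 higher in hypoxic neuroblasts, against 3701 (12.2%) and 3278 (10.8%) of all probes. In hypoxic glomus cells 6 were then lower and 1 higher, against 2490 (8.18%) and 2215 (7.28%) of all probes. The family's median turned to -0.14 in neuroblasts and -0.08 in glomus cells after centring, against -0.03 and -0.04 over all probes. After quantile normalization it was -0.17 in neuroblasts and -0.10 in glomus cells, against 0.03 and 0.01 over all probes.

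Of the family, Cdh7 was the gene whose hypoxia difference varied most between the fractions. Subtracting the hypoxia difference of glomus cells from that of neuroblasts gave -3.18 ± 0.42 on the log2 scale (95% interval -4.06 to -2.30, adjusted p = 0.00398), and it passed in all 24 alternatives, at -3.31 without hypoxic neuroblast replicate 1. In glomus cells Cdh7 averaged 4.26 in normoxia and 4.06 in hypoxia, below the array medians of 4.42 to 4.64 and 4.71 to 4.74. Whether a probe at that level could show a fall was not tested. The normoxic neuroblast arrays, which set the normoxic difference between the fractions, enter this value too. Pcdh19 was the only other gene of the family to pass, at -2.05 ± 0.37 (adjusted p = 0.0463). That call was lost in 13 of 24 alternatives, among them centring, the replicate block and the fit without hypoxic neuroblast replicate 1 (adjusted p = 0.0595), while the value stayed between -2.24 and -1.86. The 2 genes are 4% of the 50, against 0.0789% of all probes, and both were lower, against 0.0526%. An unadjusted p under 0.05 was found for 8 of the 50, a count given without its share of all probes and so no result about the family. Cdh6 had -1.93 ± 0.49 (adjusted p = 0.247), Pcdhb2 had -2.13 ± 0.65 (adjusted p = 0.427), Pcdhb8 0.85, Cdh9 0.61 and Cdh1 0.43, and none of these passed. Pcdhb2 gained a call in 1 of 24 alternatives, without hypoxic neuroblast replicate 4 (-2.78, adjusted p = 0.00942).

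**Figure D4:**
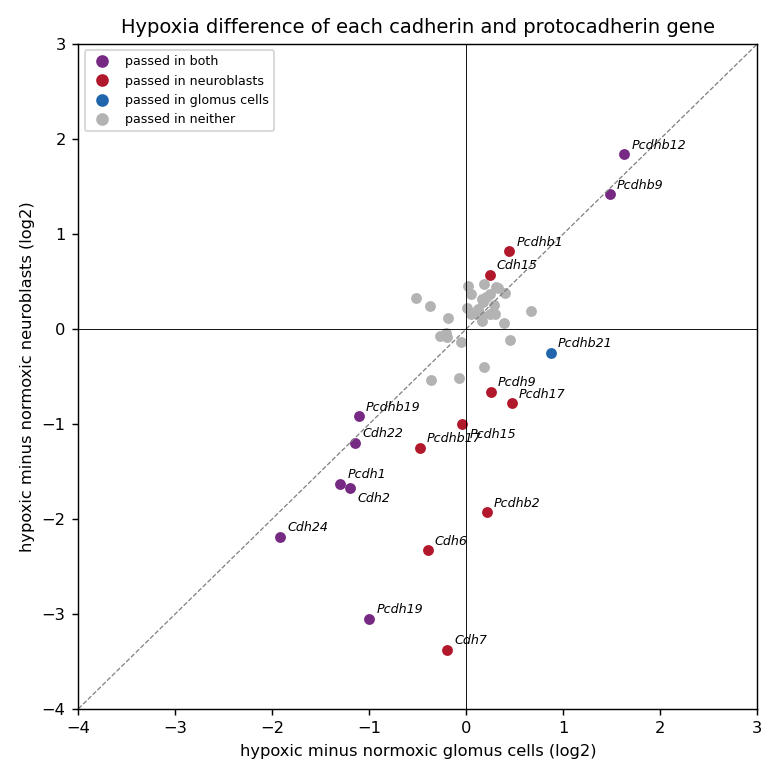
Log2 difference between hypoxia and normoxia of each of the 50 genes in neuroblasts (vertical axis) and in glomus cells (horizontal axis), with the line of equal differences dashed. Purple genes passed in both fractions, red ones in neuroblasts and the blue one in glomus cells, as the legend gives. Cdh24, Cdh22, Pcdh1, Pcdhb9 and Pcdhb12 lie near the line, while Cdh7 lies far below it, and Cdh6 lies below it without a difference between the fractions that passed (adjusted p = 0.247).

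The clustered protocadherins with a single-gene probe were 19 beta genes, each a single large exon. All but Pcdhb13 and Pcdhb15, which were not found in the reference annotation, were placed on chromosome 18, in one cluster. The sequences of the beta genes are similar, and whether their probes cross-hybridise was not tested. Of the 19, 7 passed in at least 1 comparison and 12 in none, and the median log2 difference of the 19 was between -0.05 and 0.03 in the 4 comparisons of groups. Pcdhb2 (probe 17722641) was the beta gene of normoxic neuroblasts. Its log2 signals were 6.18, 5.86, 6.73 and 6.64 in normoxic neuroblasts, against 3.52, 4.10, 4.80 and 3.69 in normoxic glomus cells, with no overlap (2.33 ± 0.46, adjusted p = 0.0101). In hypoxic neuroblasts it had 3.49, 3.64, 4.21 and 6.36, so replicate 4 stayed at the normoxic level while the other 3 were at the glomus level (log2 difference -1.93 ± 0.46, adjusted p = 0.00453). Without hypoxic neuroblast replicate 1 the Pcdhb2 difference was -1.62 (adjusted p = 0.0172). Along the chromosome Pcdhb2 lies between Pcdhb1 and Pcdhb3. Between normoxic neuroblasts and normoxic glomus cells Pcdhb1 had a log2 difference of -0.26 ± 0.26, Pcdhb3 had 0.81 and Pcdhb4, the gene after it, had 0.62, and none of these passed. Pcdhb8 had the lowest difference of the beta genes there, -0.85 ± 0.35 (adjusted p = 0.388).

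Pcdhb9 (probe 17722658) was higher in both hypoxic fractions. It had log2 signals of 6.76, 6.54, 7.02 and 6.65 in hypoxic neuroblasts, against 5.20, 5.52, 5.62 and 4.94 in normoxic neuroblasts, and 6.78, 5.77, 6.42 and 5.84 in hypoxic glomus cells, against 3.95, 5.15, 5.31 and 4.46 in normoxic glomus cells. Neither pair of groups overlapped. The log2 differences were 1.42 ± 0.29 in neuroblasts (adjusted p = 0.00121) and 1.48 ± 0.29 in glomus cells (adjusted p = 0.00143), and both passed in all 25 alternatives. Pcdhb12 (probe 17722666) had 7.48, 4.99, 6.07 and 6.08 in hypoxic neuroblasts, against 4.40, 4.73, 3.73 and 4.41 in normoxic neuroblasts, a wide spread without overlap (1.84 ± 0.46, adjusted p = 0.00664). Without replicate 1 of the hypoxic neuroblasts, the highest of them, the difference was 1.4 (adjusted p = 0.0228). In glomus cells it had 7.19, 7.13, 5.17 and 6.18 in hypoxia, against 5.30, 4.98, 4.55 and 4.32 in normoxia, which overlapped (1.63 ± 0.46, adjusted p = 0.0199), and the call was lost after quantile normalization or when normoxic glomus replicate 3 or 4 or hypoxic glomus replicate 1 or 2 was left out.

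The remaining beta genes that passed moved less. Pcdhb19 (probe 17722678) was lower in both fractions with overlapping groups, at 5.83, 5.93, 6.0 and 6.72 in hypoxic neuroblasts, against 7.01, 6.85, 6.60 and 7.68 in normoxic neuroblasts (-0.92 ± 0.33, adjusted p = 0.0409), with a log2 difference of -1.11 ± 0.33 in glomus cells (adjusted p = 0.0232). The glomus call was lost without normoxic glomus replicate 3 (adjusted p = 0.0668) or 4 (0.0863) or hypoxic glomus replicate 4 (0.087). Pcdhb17 (probe 17722676) had 6.26, 6.10, 4.18 and 6.07 in hypoxic neuroblasts, against 6.78, 6.57, 7.07 and 7.17 in normoxic neuroblasts. The groups did not overlap, replicate 3 was far below the others, and the log2 difference was -1.25 ± 0.38 (adjusted p = 0.0193). The call was lost after quantile normalization (adjusted p = 0.0893), with only the arrays compared (0.0561) and without normoxic neuroblast replicate 4 (0.053). Pcdhb1 (probe 17722639) had 4.92, 3.79, 3.82 and 3.60 in hypoxic neuroblasts, against 3.35, 3.10, 3.24 and 3.14 in normoxic neuroblasts. Its log2 difference of 0.82 ± 0.26 (adjusted p = 0.0226) was 0.53 without hypoxic neuroblast replicate 1 (adjusted p = 0.0647), and its call was lost under centring, quantile normalization and array weights too. Pcdhb21 was at 5.40 to 6.34 in hypoxic glomus cells, above 4.50, 4.89, 5.13 and 4.70 in normoxic glomus cells (0.87 ± 0.24, adjusted p = 0.0177), a call that centring and quantile normalization ended. In neuroblasts it had -0.25 ± 0.24 and did not pass (adjusted p = 0.425), and the difference between the fractions did not pass either (-1.12 ± 0.34, adjusted p = 0.435).

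**Figure D5:**
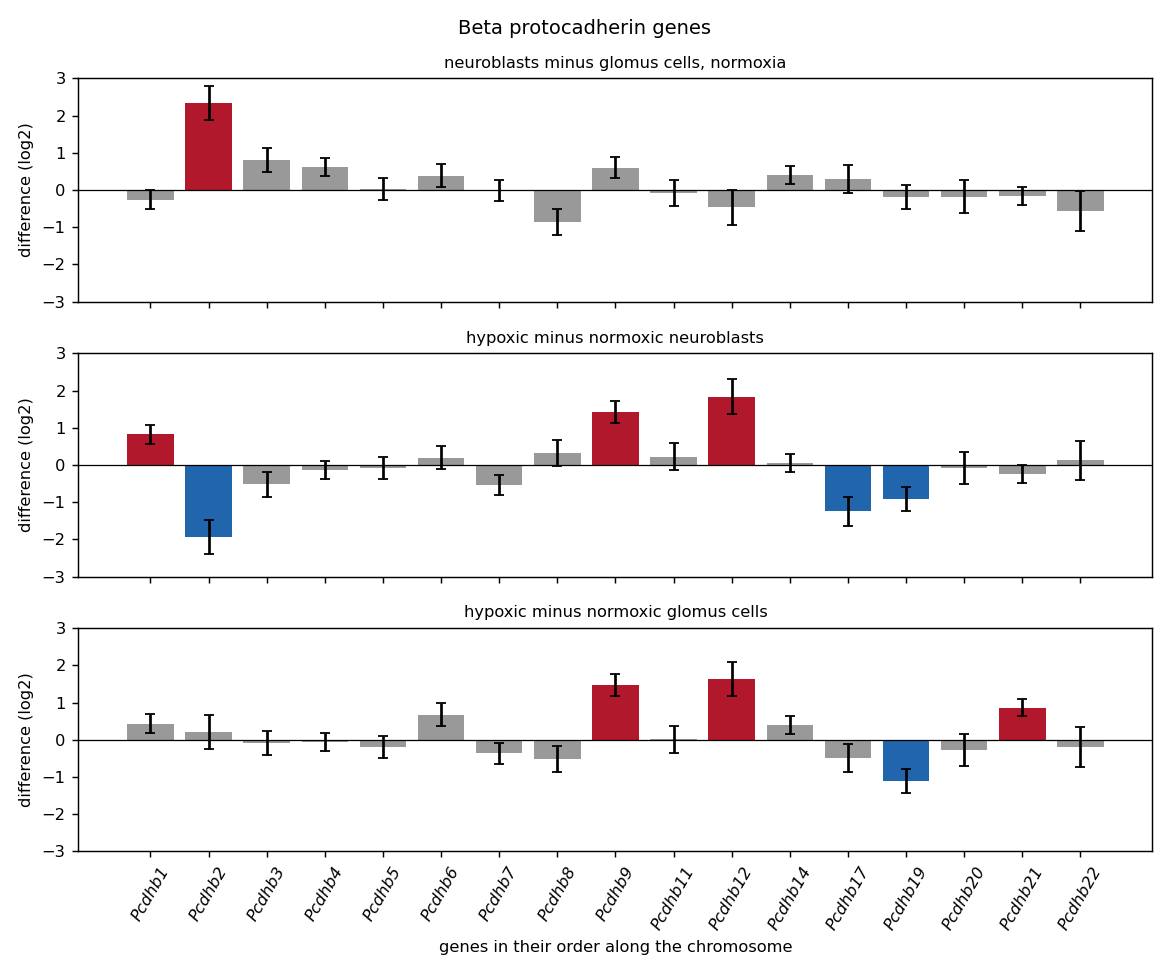
Log2 difference of the 17 beta protocadherin genes found in the reference annotation, in their order along the chromosome, for neuroblasts minus glomus cells in normoxia and for hypoxic minus normoxic neuroblasts and glomus cells. Bars are limma differences, whiskers their standard errors, red and blue mark genes that passed as higher and lower. Pcdhb2 stands alone at 2.33 in the upper panel between Pcdhb1 at -0.26 and Pcdhb3 at 0.81, and Pcdhb9 and Pcdhb12 rise in both lower panels while Pcdhb19 falls.

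Protocadherin promoters are known to share a short conserved element around CGCT, which the chromatin protein CTCF binds when it brings a chosen promoter to the cluster's enhancers. The stretch of 10 bases that the most beta promoters share, GGTGGCGCTG, contains these letters. It was chosen from these promoters, so that they hold it is no finding, and it was searched on both strands in the 250 bases before each start. It holds no copy of CANNTG or ACGTG. It was found in 13 of the 14 beta promoters in the table, all but Pcdhb1, and in 55 of all 27457 promoters (0.2%). The element ended 36 to 219 bases before the start, under 100 in 11 of the 13. The windows of 30 bases around it are printed for the 5 beta genes that passed and hold it, and for Pcdhb3, a neighbour that did not pass. Of the other beta genes that passed, Pcdhb1 lacks the element and Pcdhb17 was not matched in the promoter table. They are RefSeq sequence on build GRCr8, plus strand, with the element in capitals: Pcdhb2 at chr18:29279923-29279952, Pcdhb3 at chr18:29285604-29285633, Pcdhb9 at chr18:29379248-29379277, Pcdhb12 at chr18:29413648-29413677, Pcdhb19 at chr18:29478764-29478793 and Pcdhb21 at chr18:29492149-29492178.
Pcdhb2: aagaacgcagGGTGGCGCTGcagcctcaga
Pcdhb3: atgaacgcatGGTGGCGCTGttgactaaga
Pcdhb9: aaagacacagGGTGGCGCTGcaggctaaga
Pcdhb12: aaggacgcttGGTGGCGCTGcaggctaaga
Pcdhb19: gaagacacatGGTGGCGCTGcaggataatg
Pcdhb21: atagtcacatGGTGGCGCTGcaggatagga
The printed genes were chosen for holding the element, so that they have the same 10 letters is no finding. In hypoxic neuroblasts Pcdhb2 and Pcdhb19 were lower, Pcdhb9 and Pcdhb12 higher, and Pcdhb3 and Pcdhb21 had no call. Pcdhb1, without the element, was higher.

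The genes without a call were the larger share of the family: 31 of the 50 passed in no comparison. The highest and lowest of their 4 group means were 0.16 to 1.01 apart on the log2 scale, with a median of 0.45. Among type I cadherins, Cdh1, Cdh3 and Cdh4 (E-, P- and R-cadherin) did not pass, and Cdh15, M-cadherin of muscle, passed only in hypoxic neuroblasts, with 4.43, 4.62, 4.99 and 4.47 there, against 3.84, 4.16, 4.15 and 4.09 in normoxic neuroblasts. Its groups did not overlap, and the log2 difference of 0.57 ± 0.18 (adjusted p = 0.0268) lost its call under centring and quantile normalization. All 5 other cadherins, Cdh13, Cdh16, Cdh17, Cdh23 and Cdh26, passed in none of the comparisons. The widest spread was that of Cdh11, a type II cadherin of mesenchyme, where normoxic neuroblast replicate 2 had 7.38 against 4.46 to 4.91 in the other 3 arrays of its group. Fibroblast markers spread in the same group, with list means of 5.52 to 8.06 over its 4 arrays, and their part in the Cdh11 value was not tested. Of the 50 genes, 23 lay in the dimmer 50% of probes by mean signal and 2 in the dimmest 25%, and no detection call was used here to say whether a dim probe was above the array's background.

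Of 12 catenins and junction adaptors, the inner partners of the cadherins, 9 were lower in hypoxic neuroblasts and 7 in hypoxic glomus cells, and none passed as higher, against 18.9% and 13.5% of named genes lower. Ctnnb1, beta-catenin, which links classical cadherins to alpha-catenin, averaged 7.01 in hypoxic neuroblasts against 9.29 in normoxic neuroblasts (log2 difference -2.28 ± 0.23, adjusted p = 3.01e-06), and 7.60 in hypoxic glomus cells against 9.11 in normoxic glomus cells (-1.50 ± 0.23, adjusted p = 0.000255). Ctnnd1, the catenin that keeps cadherins at the membrane, had -1.68 ± 0.20 in neuroblasts (adjusted p = 9.78e-06), and Plekha7, an adaptor of the adherens junction, had -1.54 ± 0.19 in neuroblasts (adjusted p = 1.53e-05) and -1.35 ± 0.19 in glomus cells (adjusted p = 0.000112). The median log2 difference of the 12 was -0.85 in neuroblasts and -0.82 in glomus cells, against 0.25 and 0.17 over all probes. Without hypoxic neuroblast replicate 1, 7 of the 12 were lower in neuroblasts, and in the next 3 lists 8 effectors, 5 processing genes and 6 cluster regulators were lower.

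Of 12 protocadherin effectors, 8 were lower in hypoxic neuroblasts and 7 in hypoxic glomus cells. The background for this list and for the processing genes and cluster regulators below is again 18.9% and 13.5% of named genes lower. The kinase gene Taok2, which acts below Pcdh8 in rat neurons, had -1.40 ± 0.16 in neuroblasts (adjusted p = 6.47e-06) and -1.41 ± 0.16 in glomus cells (adjusted p = 1.9e-05), and Ptk2b, a focal adhesion kinase that clustered protocadherins inhibit, had -2.48 ± 0.32 in neuroblasts (adjusted p = 2.15e-05) and -2.11 ± 0.32 in glomus cells (adjusted p = 0.000198). Cyfip1, a WAVE complex subunit, had -1.27 ± 0.19 in neuroblasts (adjusted p = 9.46e-05). Of 8 cadherin processing genes 5 were lower in each fraction. Tmtc1 and Tmtc3, which attach mannose to cadherin domains, had the smallest p in both, and in neuroblasts the gamma-secretase gene Ncstn had the largest fall (-1.50). Without hypoxic neuroblast replicate 1 the Ncstn difference was -1.06, and Adam9 had the largest fall (-1.25). Psen2 was higher in hypoxic glomus cells. Of 9 regulators of the protocadherin cluster, 6 were lower in hypoxic neuroblasts and 3 in hypoxic glomus cells. Among these, Ctcf had -0.90 ± 0.23 in neuroblasts (adjusted p = 0.00678) and -0.67 ± 0.23 in glomus cells (adjusted p = 0.0497), and the cohesin gene Rad21 had -1.17 ± 0.27 in neuroblasts (adjusted p = 0.00308) and -1.48 ± 0.27 in glomus cells (adjusted p = 0.000827).

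Of 5 transcriptional repressors of cadherins measured, Twist2 was higher in both fractions, by 2.06 ± 0.27 on the log2 scale in hypoxic neuroblasts (adjusted p = 2.68e-05) and 1.56 ± 0.27 in hypoxic glomus cells (adjusted p = 0.000587), and Twist1 was higher in hypoxic neuroblasts (0.85 ± 0.26, adjusted p = 0.021), with overlapping groups. None of the 4 nectins, adhesion proteins that work beside cadherins, passed in any comparison. In normoxia no gene of these 6 lists passed between neuroblasts and glomus cells, and 1 processing gene did without hypoxic neuroblast replicate 1. After centring, 9 catenins and adaptors, 8 effectors and 7 cluster regulators were lower in hypoxic neuroblasts, and after quantile normalization 7, 8 and 7. Of all probes, 18% were lower there after centring and 12.2% after quantile normalization. After centring 2 of the 5 repressors were lower in hypoxic neuroblasts and 1 was higher.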

How the data were processed

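The authors' deposited table holds log2 signals of 30429 probes on 16 Affymetrix rat arrays, made with Transcriptome Analysis Console, per the submitters' processing notes. The tool's version, background correction, between-array normalization and annotation release were not given in the sources used here, and the base of the log2 scale was inferred from the range of 0.87 to 13.33 and the tool. Probe names came from GEO's platform annotation (18511 probes with 1 gene, 575 with several, 11343 with none), and 48 of the 50 gene IDs matched RefSeq with the same symbol, all but Pcdhb13 and Pcdhb15. A mean per group was fitted to all probes with limma 3.58.1 (lmFit and eBayes, R 4.3.3, 12 residual degrees of freedom), with no filter and no further scaling. Two-sided p-values were adjusted (Benjamini-Hochberg) across the 30429 probes. Errors after ± are limma standard errors for differences and SD over 4 arrays for means. The fit was tested on simulated data. Figures used Python 3.11.15 and matplotlib 3.10.9.

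The genes, classes and lists were chosen with earlier results of these data known. The text names Cdh7, genes that passed (the 15 with the smallest p at most), the 3 largest and 3 smallest differences, and per pathway list up to 3 genes that passed with the smallest p. Replicate numbers were not used as pairs in the main fit. Of 16 same-numbered pairs across groups 4 had deviations correlated above 0.1, which cannot settle whether the samples were paired. Alternatives were median centring, quantile normalization, filters on dim probes, an intensity trend, array weights, only the arrays compared, the replicate block, averaged probes and each array left out.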

Additional observations from a re-analysis of the deposited data

Results flagged for a closer look

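In 8 of 92 gene and group combinations (23 named genes in 4 groups), 1 array lay far from the other 3 of its group, and chance alone flags about 1 in 20 groups. Hypoxic neuroblast replicate 1 was the array in 2 of them: Cdh2 was at 5.98 there, against 7.60 to 7.76 in the other 3 hypoxic neuroblast arrays, and Pcdhb1 at 4.92, against 3.60 to 3.82. Hypoxic neuroblast replicate 3 had Pcdhb17 at 4.18, where the other 3 were at 6.07 to 6.26. Normoxic neuroblast replicate 1 had Cdh7 at 6.57, where the other 3 were at 7.78 to 7.88, which is still above every other group. Hypoxic glomus replicate 3 had Pcdhb21 at 6.34, against 5.40 to 5.49 in the rest of its group, and Cdh15 at 4.01, against 4.53 to 4.62. In normoxic glomus cells, replicate 3 had Cdh15 at 4.54, against 4.05 to 4.12, and replicate 1 had Cdh1 at 5.25, against 3.95 to 4.16.

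The hypoxia difference itself differed between the fractions for Cdh7, by -3.18 on the log2 scale (neuroblasts minus glomus cells, adjusted p = 0.00398 in limma), and for Pcdh19, by -2.05 (adjusted p = 0.0463). Cdh7 averaged 4.26 in normoxic and 4.06 in hypoxic glomus cells, below the medians of those arrays, and whether it could fall further there was not tested.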

How the results depend on the processing

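Over 48 pairs of a named gene and a comparison, 1188 alternative values were computed: 1118 kept their side of the threshold, 65 lost the call and 5 gained it. No value with a call in either fit changed direction, and changes of sign without a call were not counted. Cdh7 between the populations in hypoxia changed sign in this way, from 0.07 to -0.06 without hypoxic neuroblast replicate 1. The number of family genes passing between neuroblasts and glomus cells in hypoxia was 1, and it was 2 after quantile normalization, 0 with array weights and 0 when only the arrays compared were fitted. For the difference of the hypoxia differences it was 2, and 1 after centring. The replicate number as a block gave 1 there, and 8, 1, 9 and 17 family genes in the normoxic and hypoxic comparisons of the populations and in hypoxic glomus cells and neuroblasts, which are the unblocked counts. Deviations of same-numbered samples from their group means were correlated between -0.1 and 0.2. In 5 of 16 pairs the array of the first group matched its own number best in the other group, and the reverse was not checked.

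Leaving out each array in turn gave 7 to 10 family genes between the populations in normoxia, 0 to 2 in hypoxia, 5 to 9 in hypoxic glomus cells (5 without normoxic glomus replicate 4), 12 to 17 in hypoxic neuroblasts (12 without normoxic neuroblast replicate 4) and 1 to 2 for the difference of the hypoxia differences. Pathway lists in hypoxic neuroblasts were also counted without hypoxic neuroblast replicate 1, chosen after seeing the data. The fit of only the arrays compared was not run for the difference of the hypoxia differences, which needs all 16. With 4 arrays a group and no detection calls here, a dim gene that did not pass is not shown to be unchanged.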

Other observations

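Other genes of the cadherin superfamily, listed after the family's values had been seen, were measured too, and as a list chosen with values known they get no test. Of 19 measured, Fat4, a giant cadherin of planar cell polarity, was higher in normoxic neuroblasts (8.15) than in normoxic glomus cells (5.83; log2 difference 2.32 ± 0.30, adjusted p = 0.00022 in limma), and so was the calsyntenin gene Clstn2 (1.06 ± 0.25, adjusted p = 0.0297). In hypoxic neuroblasts 9 of the 19 were lower than in normoxic neuroblasts and 1, Cdhr4, was higher, against 18.9% of named genes lower and 17.4% higher. Celsr3, which guides axon tracts, averaged 6.45 in hypoxic neuroblasts and 8.47 in normoxic neuroblasts (-2.02 ± 0.22, adjusted p = 5.68e-06), and Dchs1, the ligand of Fat4, had -1.47 ± 0.20 (adjusted p = 4.04e-05). Fat4 itself had -2.18 ± 0.30 (adjusted p = 4.43e-05). In hypoxic glomus cells 6 of the 19 were lower, against 13.5% of named genes, among them Celsr2 (-1.39 ± 0.24, adjusted p = 0.000657) and Fat1 (-1.83 ± 0.36, adjusted p = 0.00178). Without hypoxic neuroblast replicate 1, 8 were lower and 1 higher in hypoxic neuroblasts.

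The 2 cadherins left out of the family as markers of other cells were measured too. Cdh19, of glial cells, averaged 6.94 in hypoxic glomus cells and 7.84 in normoxic glomus cells (-0.90 ± 0.28, adjusted p = 0.0288). Cdh5, of endothelium, passed in no comparison, with 4.47 in normoxic neuroblasts and 5.66 in normoxic glomus cells (adjusted p = 0.399).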
